A study of Homo sapiens with 24 samples.

Results

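Replication-dependent histone genes were examined in m6A-seq data from pluripotent stem cells (hPSC) of human origin and pancreatic cells made from them. The genes were the protein-coding genes of GENCODE 44 on chromosomes 1 and 6 whose symbols name the linker histones H1-1 to H1-6 or a core histone cluster gene (H2AC, H2BC, H3C or H4C). The annotation holds 68 such genes, made of 6 H1, 17 H2A, 18 H2B, 13 H3 and 14 H4 genes. Of the 228472 peaks in the 6 deposited lists, 123 were assigned to one or more of these genes, and 34 of the 68 genes had a peak in any list, against 81.8% of all protein-coding genes. m6A-seq uses an antibody to pull down RNA fragments that carry N6-methyladenosine (IP) and sequences them beside the fragments before precipitation (input), so a peak is a stretch with more IP than input reads.

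All cells came from the human embryonic stem cell line MEL1, which the study names MEL1 INSGFP/W, a reporter line with GFP at 1 insulin allele, and were grown on CF1 feeder cells before differentiation. In the first batch, mRNA was selected from undifferentiated hPSC, from definitive endoderm (DE), from progenitors of the pancreas (PP) and from islet-like organoids (hILO), and precipitated with a SYSY antibody. In the second batch, total RNA of wild-type PP (WT PP) and of PP lacking the m6A demethylase ALKBH5 (A5-KO PP) was precipitated with a Millipore antibody and made into libraries with another kit, after rRNA was removed from the input fragments only. The knockout was made in hPSC with CRISPR-Cpf1 directed at the first exon of ALKBH5, and the labels name 1 knockout genotype without saying whether more than 1 line was used. Each population had 2 IP and 2 input libraries but 1 peak list with pooled reads, so no value below has a replicate check and no test between populations could be made. The study calls the libraries of a stage biological replicates, and the labels give no culture for any of them. RNA selection, antibody, library kit and input treatment all changed between the batches and cannot be told apart.

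The lists held 29083 to 55219 peaks, with a median of 33 to 302 input reads per peak and 0.247% to 36.6% of peaks under 10 input reads. As a check of the labels, INS had peaks in hILO alone and PDX1 in hILO and the 3 PP lists, while SOX17 had peaks in DE, WT PP and A5-KO PP and POU5F1 in hPSC and DE. POU5F1 had 114 IP and 11 input reads in hPSC and 1621 and 727 in DE, so its reads did not single out hPSC. ALKBH5 itself had 836 IP and 289 input reads in its WT PP peaks and 592 IP and 1 input read in its A5-KO PP peaks. Between the first-batch lists its peaks held 1889 to 6465 IP reads.

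Replication-dependent histone mRNAs supply the histones that package new DNA in S phase. They are the mRNAs of animal cells that normally carry no poly(A) tail and end instead just after a conserved stem-loop, which is bound by the stem-loop binding protein SLBP during processing, translation and decay. Most are intronless. Some of these genes also give longer, polyadenylated and sometimes spliced transcripts that run past the stem-loop, and such transcripts are retained when mRNA is selected by its tail. m6A is laid down mostly at adenosines in the motif DRACH (the letter D stands for A, G or T, R for A or G and H for A, C or T), written here in DNA letters.

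The stem-loop letters were found where the biology places them. The motif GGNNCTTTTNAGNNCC, searched on the transcript strand within 100 nt after the stop codon, was present in 65 of the 68 genes and in 69 of 20033 protein-coding genes (0.344%). The 4 carriers outside the group were H2AX, H3-4, H3-7 and H4C16, and the 3 members without it were H3C6, H2BC10 and H4C13, for which no match says only that these letters were not in this window. The stem-loops are shown because they divide each gene into its usual mRNA and the stretch beyond it. The 4 commonest forms are given with the loop in capitals.
H2AC25, H1-2 and 38 others: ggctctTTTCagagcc
H4C11, H4C3, H4C5 and 6 other H4 genes: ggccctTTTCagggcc
H2BC5, H3C8 and 7 others: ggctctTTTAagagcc
H4C9, H4C12, H4C14 and H4C15: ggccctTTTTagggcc
The other 3 carriers, H2AC11, H2AC15 and H2AC20, each had a form of their own.

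Next, the coding stretches under the most recurrent or read-rich peaks are shown, with DRACH motifs in capitals. All lie on GRCh38 and are written 5′ to 3′ on the transcript strand. The first pair gives the coding bases common to the peaks of every list that held the site, which were 6 lists for H4C11 and 5 for H4C14.
H4C11, chr6:27824125-27824166, plus strand: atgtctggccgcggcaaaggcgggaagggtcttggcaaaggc
H4C14, chr1:149832685-149832733, plus strand: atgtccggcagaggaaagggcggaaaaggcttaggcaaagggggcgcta
Neither stretch holds a DRACH motif, and the nearest one lay 8 nt outside the common part for H4C11 and 25 nt for H4C14. Both begin at the start codon. RNA of the mRNA batch was broken into fragments of about 100 nt, so a peak need not contain the adenosine that was bound.

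The start of the coding sequence also recurred in other core histones. The next lines give the coding part of single peaks, in hPSC for the H2B genes and for H2AC14, and in WT PP for H2AC15.
H2BC6, chr6:26183796-26183820, plus strand: atgcctgagccagcgaaatccgctc
H2BC8, chr6:26216609-26216643, minus strand: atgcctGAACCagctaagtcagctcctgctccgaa
H2BC9, chr6:26251651-26251700, plus strand: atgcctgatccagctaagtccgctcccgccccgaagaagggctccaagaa
H2AC15, chr6:27838280-27838329, minus strand: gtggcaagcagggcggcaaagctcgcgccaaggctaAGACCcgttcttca
H2AC14, chr6:27814602-27814740, minus strand: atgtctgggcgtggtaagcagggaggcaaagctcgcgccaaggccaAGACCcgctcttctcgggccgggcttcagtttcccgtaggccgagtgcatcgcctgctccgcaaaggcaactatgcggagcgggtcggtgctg
The H2B stretches of H2BC6 and H2BC9 hold no DRACH motif, while both H2A stretches hold AGACC. The whole 50-nt peak of H2BC6, with its 5′ UTR bases, held 2 DRACH motifs.

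The recurrent sites of H1-2 and H3C10 lay toward the 3′ end, and the bases common to their lists are given.
H1-2, chr6:26055865-26055989, minus strand: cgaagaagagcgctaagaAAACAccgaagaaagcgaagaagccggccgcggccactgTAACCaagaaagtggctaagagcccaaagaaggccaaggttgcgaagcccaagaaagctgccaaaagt
H3C10, chr6:27810439-27810484, plus strand: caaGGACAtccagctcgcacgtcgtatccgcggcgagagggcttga
For sites past the stem-loop, only the 21 nt around a motif are given. The first is the GGACT of the H2AC25 site found in all 6 lists, 187 nt after the stop codon, and the second an AGACT of the H4C14 site found in 5 lists, 199 nt after it.
H2AC25, chr1:228457228-228457248, minus strand: gaccctggGGACTgattgggc
H4C14, chr1:149833185-149833205, plus strand: agccgtaaAGACTtaagtcgt

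The histone genes carried a peak far less often than protein-coding genes in general. At least 1 peak was found on 24 of the 68 genes in WT PP (35.3%), 19 in A5-KO PP (27.9%), 17 each in hILO and PP (25% each), 15 in hPSC (22.1%) and 10 in DE (14.7%). Of all 20033 protein-coding genes, 69.7% had a peak in A5-KO PP, 62.8% in WT PP, 60.2% in hPSC, 57.7% in hILO, 57% in DE and 52.2% in PP. The 1049 other intronless coding genes were nearer to the histone genes, at 21.3% in PP to 29.5% in WT PP. Among these 3 groups, histone genes stood above the other intronless genes in PP, hILO and WT PP, and below them in hPSC, DE and A5-KO PP. That order depended on the peaks counted. By overlap with exons, 15 histone genes had a peak in PP, 15 in hILO and 20 in WT PP, no longer above in hILO and WT PP. With peaks inside the main transcript, a limit chosen after seeing the data, the counts were 9, 11 and 15. These were below the other intronless genes in all 3 lists. The other intronless genes were not recounted under either limit. With peaks of p below 1e-05 only, the count was 14 in A5-KO PP and 14 in hILO, against 56.3% of protein-coding genes in either, and 13 in WT PP, against 51.2%. It was 11 in hPSC, 8 in DE and 8 in PP, against 49.9%, 47.2% and 42.6%. WT PP was then no longer the highest, and PP no longer stood above DE. A gene that is not expressed cannot carry a peak, and how many of the 68 genes were expressed was not analysed here.

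Every family was represented. A peak was found on 4 of 6 H1, 7 of 17 H2A, 9 of 18 H2B, 7 of 13 H3 and 7 of 14 H4 genes. Of the 34 genes with a peak, 18 had one in both batches, 9 in the mRNA batch only and 7 in the total RNA batch only. Of the 16391 protein-coding genes with a peak, 79.2% had one in both, 8.64% in the mRNA batch only and 12.2% in the total RNA batch only. The mRNA batch has 4 lists and the total RNA batch 2. The H1 genes, which encode the linker histones that bind DNA between nucleosomes, had 3 genes in the mRNA batch only and 1, H1-5, in both. The H2A and H2B genes, whose proteins pair to form the outer dimers of the nucleosome, had 1 gene each in the mRNA batch only and 2 each in the total RNA batch only. The H3 and H4 genes, whose proteins form the central tetramer, had 2 each in the mRNA batch only, and 2 H3 genes and 1 H4 gene in the total RNA batch only.

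**Figure D1:**
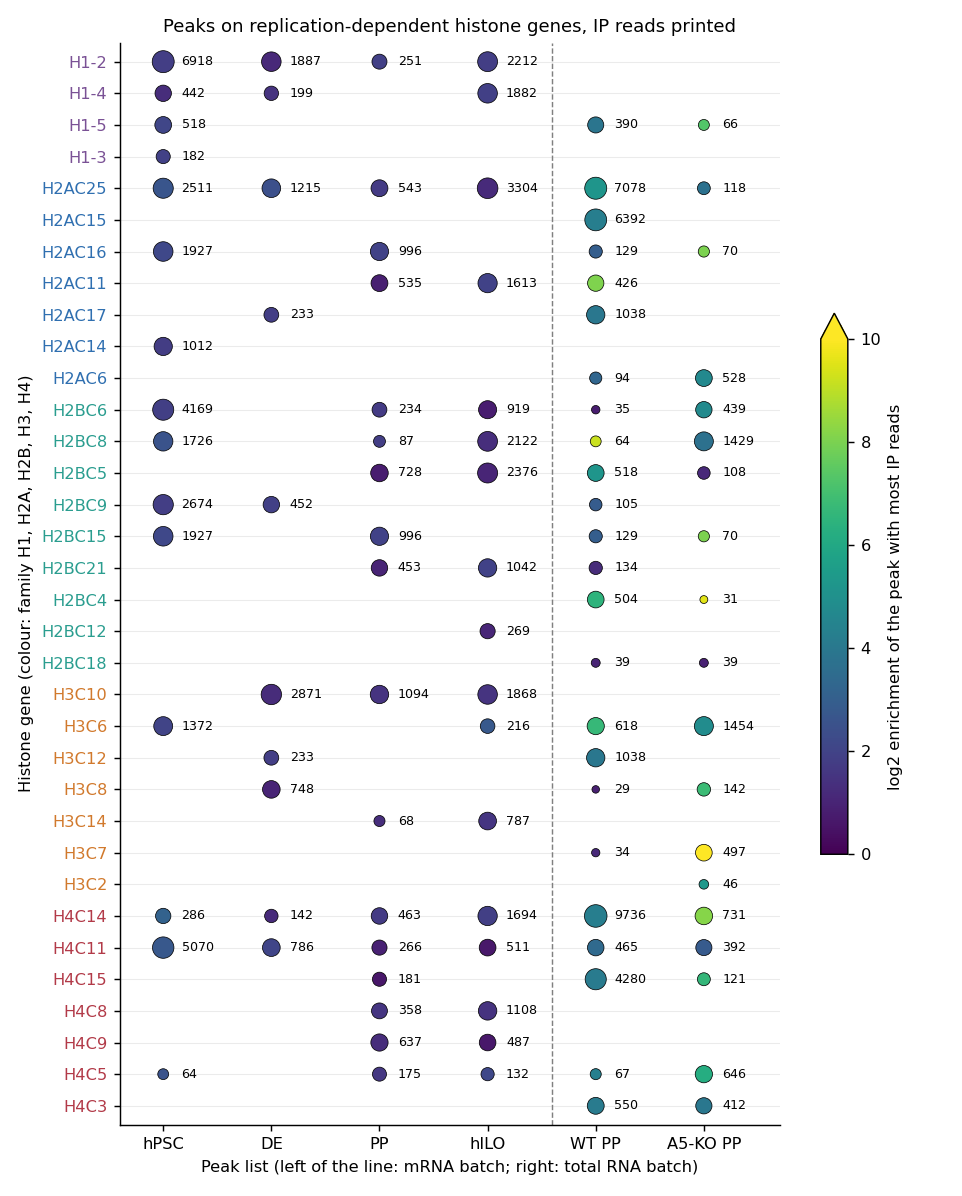
The 34 histone genes with a peak (rows, by family) in the 6 lists (columns); the printed number is the pooled IP reads in the gene's peaks, point size rises with it, and colour gives the authors' log2 enrichment of the peak with most IP reads. H2AC25, H4C11 and H4C14 have a point in all 6 columns, and H1-2 in the 4 columns of the mRNA batch only.

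The peaks held a small part of the reads. The input part was not larger in total RNA, while the IP part was largest in WT PP. Member peaks took 0.0302% of the input reads inside peaks in hPSC (95% Wilson interval 0.0290% to 0.0315%), 0.0309% in hILO (0.0302% to 0.0315%), 0.0257% in PP (0.0246% to 0.0269%) and 0.0308% in DE (0.0299% to 0.0318%). The input share was 0.0308% for WT PP (0.0301% to 0.0316%) and 0.0137% for A5-KO PP (0.0131% to 0.0144%). WT PP was within the range of the mRNA lists and A5-KO PP below it. Without peaks in which over 50% of 100-nt windows occur elsewhere in the genome, WT PP had 0.0160% and A5-KO PP 0.0121%, both below the 0.0230% to 0.0289% of the mRNA lists. The IP share was 0.0362% in hPSC, 0.0291% in hILO, 0.0228% in PP, 0.0278% in DE, 0.0188% in A5-KO PP and 0.0546% in WT PP. The intervals cover counting error only, PCR copies are not independent molecules, and the reads of histone genes outside peaks were not analysed here. In bulk cells, fewer cycling cells and less histone RNA per cell cannot be told apart.

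Because peaks were called separately in each list, these sums also move with the length covered. Member peaks covered 1675 nt in DE to 3624 nt in hILO. Input reads per 100 nt of peak, relative to all peaks of the same list, were 1.05 times in hPSC, 0.835 times in hILO, 0.527 times in PP, 1.53 times in DE, 0.822 times in A5-KO PP and 1.20 times in WT PP. PP was lowest and DE highest, and neither list of the total RNA batch stood outside that range. For IP reads the same quotient was 2.13 times in WT PP and 1.13 times in A5-KO PP. It was 0.468 to 1.38 times in the mRNA lists. With all member peaks counted, WT PP thus stood above the mRNA lists and A5-KO PP among them. Peaks made mostly of windows that occur elsewhere in the genome held 44.4% of the member IP reads in WT PP. In the mRNA lists such peaks held 10.1% to 18.6%. Whether WT PP stays above the mRNA lists in this quotient without such peaks was not tested.

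Peaks fell in 2 main places, the start of the coding sequence and the stretch past the stem-loop. By the place of most of their bases, 53 of the 123 peaks lay in the CDS, 51 past the stem-loop, 7 in the 5′ UTR, 2 in the 3′ UTR up to the stem-loop and 10 before the start of the main transcript. For H3C6, which lacks the letters, past the stem-loop means past the end of its main transcript. The mRNA batch had 38 of 75 peaks in the CDS and 31 past the stem-loop (41.3%). The total RNA batch had 15 of 48 in the CDS and 20 past the stem-loop (41.7%). The share past the stem-loop was thus alike in counts, although tails were selected in the first batch only. The 5′ UTR held 1 peak in the mRNA batch and 6 in the total RNA batch. Per list, the IP reads past the stem-loop were 45.1% of those in member peaks in PP, 42.4% in hILO, 42.3% in A5-KO PP, 28.9% in WT PP, 21.2% in DE and 12.7% in hPSC.

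**Figure D2:**
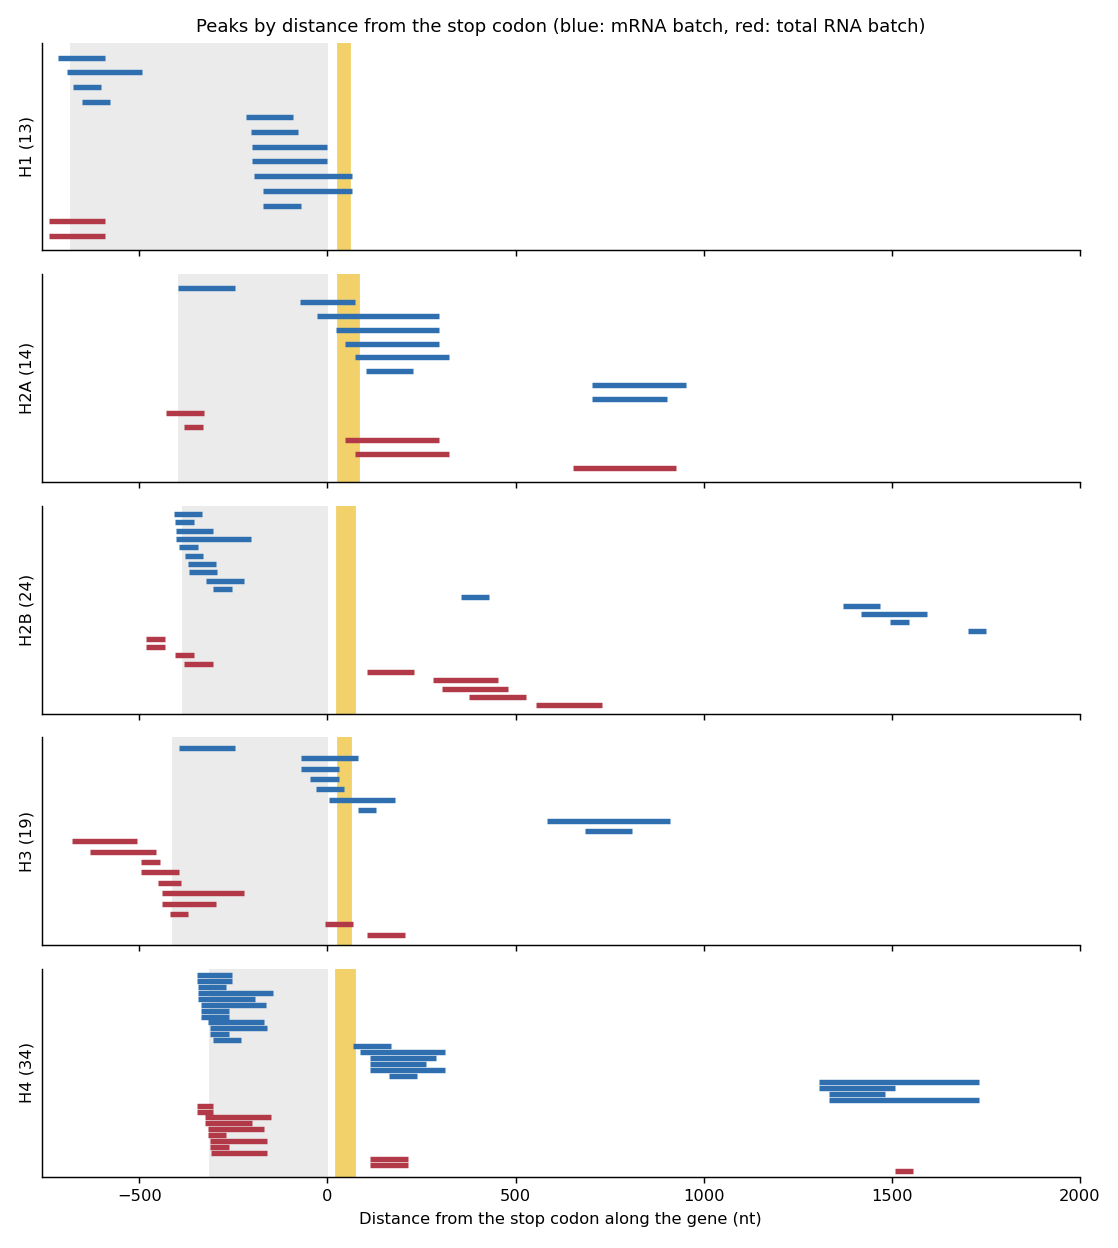
The 104 peaks with midpoints from 750 nt before to 2000 nt after the stop codon (x axis, nt along the genome), one bar per peak at its exonic length around its midpoint, by family; 19 peaks lie outside this range. Grey marks the longest CDS of the family and yellow the range of stem-loop positions; in H2B and H4 the coding peaks gather at the left edge of the grey area in both batches.

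Within the coding sequence, peaks gathered at its 5′ end. The midpoint of a peak fell in the CDS in 54 cases, and in 44 of them (81.5%) before the middle of the CDS. In other intronless coding genes, 860 of 1995 such peaks (43.1%) were before the middle, and 67 of 167 (40.1%) in those with a CDS of at most 681 nt, the longest among the histone genes. All 12 such peaks on H2B genes and all 19 on H4 genes were before the middle, as were 4 of 6 on H3 and 3 of 4 on H2A genes. The H1 genes differed, with 6 before the middle and 7 after it. Of the 41 peaks on core histone genes, 36 had their midpoint within 100 nt of the start codon, and the median distance was 45 nt. The main transcripts are short before that point, with a median 5′ UTR of 36 nt in the core histone genes. In WT PP and A5-KO PP all 11 and 5 coding midpoints were before the middle, against 12 of 15 in hPSC, 1 of 3 in DE, 7 of 9 in PP and 8 of 11 in hILO. The peaks of 1 gene in several lists are not independent, so these counts are a description.

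The core GGAC was less common under these peaks than under all peaks in every list. At least 1 DRACH was present in 77.3% of member peaks in PP to 90% in DE, and in 89.0% to 92.9% of all peaks of the lists. Per 100 nt the DRACH density in member and all peaks was 1.46 and 2.21 in hPSC, 1.55 and 2.27 in DE, 1.85 and 2.24 in PP and 1.63 and 2.17 in WT PP. It was closer in hILO, at 2.18 and 2.23, and in A5-KO PP, at 2.09 and 2.17. GGAC was present in 47.8% of member peaks in hILO, 36.4% in PP, 30% in DE, 27.3% in A5-KO PP, 26.9% in WT PP and 20% in hPSC, against 51.3% to 57.7% of all peaks. The median length of member peaks was 100 to 175 nt and that of all peaks 175 nt in every list. Per 100 nt the GGAC density was 0.149 to 0.386 in member peaks and 0.394 to 0.517 in all peaks, so that member peaks were lower in each list by this measure too.

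Past the stem-loop, 19 of the 51 peaks had their midpoint at most 300 nt from the stop codon, 19 up to 2000 nt and 13 farther. The near ones lay on H2AC11, H2AC25, H2BC8, H3C6, H3C10, H4C9, H4C14 and H4C15. The far ones lay on H2AC6, H2BC4, H2BC5, H2BC18 and H4C8, at 3746 to 28692 nt, all within exons of GENCODE 44. Of the far peaks 5 were in the mRNA batch and 8 in the total RNA batch. The 10 peaks before the start of the main transcript lay on H2AC16, H2BC6, H3C6, H3C8, H3C12 and H4C9. For 18 of the 123 peaks, no exon of GENCODE 44 was overlapped, and their whole span was used.

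The 123 peaks fell at 60 separate sites, a site being peaks of any list whose exonic bases overlap. A site was in 1 list in 28 cases, in 2 in 18, in 3 in 7, in 4 in 1, in 5 in 4 and in all 6 in 2. Of the 87989 sites that all peaks form by the same rule, 53.4% were in 1 list and 9.4% in all 6. Sites were in the mRNA batch only in 27 cases, in the total RNA batch only in 17 and in both in 16, against 26.4%, 42.5% and 31.1% of the sites of all peaks.

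H2AC25 held the most IP reads of all members. Its site lay just past the stem-loop, at chr1:228457104-228457453. The exons of all its GENCODE 44 transcripts hold 1345 nt in total beyond the stem-loop. IP and input reads were 2511 and 135 in hPSC, 1215 and 265 in DE, 543 and 80 in PP, and 3304 and 1408 in hILO. In the total RNA batch they were 7078 and 801 in WT PP and 118 and 37 in A5-KO PP. The authors' log2 enrichment was 2.64, 2.45, 1.74 and 1.21 from hPSC to hILO, 5.23 for WT PP and 3.73 for A5-KO PP. As counts not scaled to the depth of the lists, WT PP had the most IP reads and A5-KO PP the fewest. The site held 6 or 7 DRACH motifs in each list, and every 100-nt window of the gene's main transcript was unique in the genome.

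H4C11 had a coding peak in all 6 lists, at chr6:27824092-27824291. IP and input reads were 5070 and 260 in hPSC, 786 and 187 in DE, 266 and 60 in PP, and 511 and 274 in hILO. In the total RNA batch they were 465 and 101 in WT PP and 392 and 177 in A5-KO PP. The log2 enrichment was 2.73, 2.06, 0.92 and 0.64 from hPSC to hILO, 3.43 for WT PP and 2.82 for A5-KO PP. IP reads were highest in hPSC and between 266 and 786 in the other 5 lists. The peak was 200 nt long in hPSC, 150 nt in DE, hILO and WT PP, 75 nt in PP and 50 nt in A5-KO PP. These counts are not scaled to length. Of the 100-nt windows of H4C11, 90.7% occur elsewhere in the genome, and its coding sequence is identical to that of H4C12. The authors kept 1 alignment per read, so reads of such copies could not be told apart.

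H4C14 was read far more often in WT PP than in any other list at its coding site. Its coding peak was read 9660 times in IP and 1824 times in input in WT PP, but 94 and 2 times in hPSC, 200 and 25 in PP, 188 and 57 in hILO and 31 and 5 in A5-KO PP, and DE had none. That peak was 150 nt long in WT PP and hILO, 175 nt in hPSC, 75 nt in PP and 50 nt in A5-KO PP. The log2 enrichment of this site was 4.22 in WT PP, 3.06 in hPSC, 1.74 in PP, 1.53 in hILO and 0.63 in A5-KO PP. Its site just past the stem-loop went the other way, with no WT PP peak and with 700 IP and 15 input reads in A5-KO PP, against 113 and 4 in hPSC, 100 and 53 in DE, 89 and 19 in PP and 258 and 133 in hILO. H4C15, its inverted neighbour, has an identical coding sequence and had a coding peak of 4280 IP and 889 input reads in WT PP alone. Over the length shared by the 2 WT PP peaks, 149 nt, 0 coding bases differed. All 100-nt windows of both genes occur elsewhere, so reads of the 2 genes cannot be told apart.

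**Figure D3:**
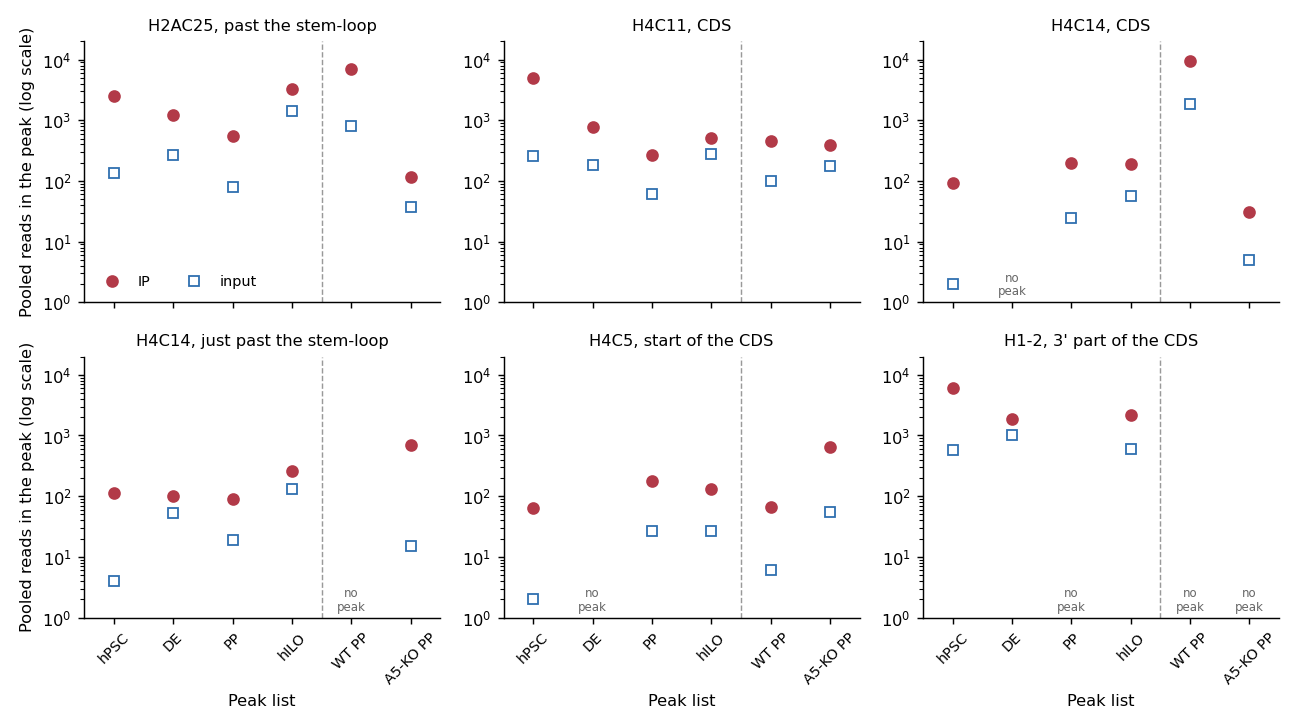
Pooled IP reads (filled) and input reads (open) in the peak at 6 recurrent sites, by list (x axis), on a log scale (y axis); lists without a peak at the site are marked. At the H4C14 coding site WT PP has 9660 IP reads and A5-KO PP 31, while at H4C11 they have 465 and 392. At both sites the WT PP peak is 150 nt long and the A5-KO PP peak 50 nt, and the counts are not scaled to length.

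Such copies weighed on WT PP more than on the other lists. Among the 68 genes 18 had 100-nt windows that occur elsewhere, and in 10 these were over 50% of windows. The peaks with over 50% of such windows numbered 27 of 123. They held 44.4% of the member IP reads in WT PP, 18.6% in hPSC, 17.7% in A5-KO PP, 13.3% in hILO, 10.9% in DE and 10.1% in PP. Without them the IP share of member peaks was 0.0304% for WT PP, 0.0295% for hPSC, 0.0205% to 0.0252% for the other mRNA lists and 0.0155% for A5-KO PP, so that WT PP stood little above hPSC.

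H1-2, a linker histone gene, had the most reads of the H1 family and peaks in the 4 mRNA lists only. IP and input reads in its peaks were 6918 and 735 in hPSC, 1887 and 999 in DE, 251 and 28 in PP, and 2212 and 597 in hILO. The hPSC reads came from a site near the 3′ end of the CDS, with 6003 and 580 reads, and a second at the start, and PP had only the site at the start. H1-4 had 442 and 62 reads in hPSC, 199 and 81 in DE and 1882 and 493 in hILO. Its site also lay in the 3′ part of the CDS. Neither gene had a peak in the total RNA batch.

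H2AC15, an H2A gene, had its only peak in WT PP, with 6392 IP and 1221 input reads and a log2 enrichment of 4.25. The peak was 50 nt long, and none of its 100-nt windows had an exact copy elsewhere, so it was not among the copies named above. Reads from near copies with mismatches were not screened. H2BC6, an H2B gene, had 4169 IP and 425 input reads at its start in hPSC. It had 234 and 29 reads in PP and 439 and 77 in A5-KO PP, in both at sites before the main transcript, and 919 and 494 in hILO and 35 and 4 in WT PP. H2BC8 had 1726 and 102 reads in hPSC, 87 and 15 in PP, 2122 and 910 in hILO, 64 and 0 in WT PP and 1429 and 650 in A5-KO PP. In hPSC and hILO these H2BC8 reads were at the start of the CDS, and in the other 3 lists past the stem-loop.

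H3C10, an H3 gene, had peaks in DE with 2871 IP and 1507 input reads, in PP with 1094 and 304 and in hILO with 1868 and 647. They spanned the end of the coding sequence or lay just beyond it, and neither total RNA list had a peak there. H3C6 had 1372 and 116 reads in hPSC within the CDS, 216 and 33 in hILO past its end, 618 and 38 in WT PP at 3 places and 1454 and 314 in A5-KO PP before its start.

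The mRNA and total RNA batches were compared directly in pancreatic progenitors, the cell type they share. Of the 22 member peaks of PP, 6 were shared with WT PP (27.3%), meaning that over 50% of their exonic length was covered by WT PP peaks, against 57.9% of all PP peaks. In the other direction 5 of 26 WT PP member peaks were shared with PP (19.2%), against 22.4% of all. By gene, 12 of the 17 PP genes (70.6%) and of the 24 WT PP genes (50%) were in both lists, against 91.2% and 75.8% of all protein-coding genes with a peak in PP and in WT PP. Genes in PP alone were H1-2, H3C10, H3C14, H4C8 and H4C9. The 12 genes in WT PP alone came from every family and included H2AC15, H3C7 and H4C3. The 6 shared pairs were at H2AC11, H2AC25, H2BC5, H2BC8, H4C11 and H4C14, of which 4 lay past the stem-loop. The authors' log2 enrichment was higher in WT PP in 6 of 6, by a median of 3.38. The same direction was seen in 84.8% of all 16826 shared peaks of these lists, whose median difference was 2.15. The lists were normalized separately.

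Along the mRNA batch, the peaks of each later list were looked for in the list before it, with no test of the difference from all peaks. Of the DE peaks 7 of 10 were shared with hPSC, against 64.7% of all. Of the PP peaks 4 of 22 were shared with DE (18.2%), against 57%. Of the hILO peaks 10 of 23 were shared with PP (43.5%), against 45.6%. By gene, hPSC and DE had 6 in common, which were 40% of the hPSC and 60% of the DE genes, against 86.1% and 90.9% of all protein-coding genes with a peak. DE and PP had 5 in common, 50% and 29.4%, against 80.8% and 88.3%. PP and hILO had 14 in common, 82.4% of either, against 89.9% and 81.3%.

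Of the 24 genes with a peak in WT PP and the 19 in A5-KO PP, 18 were in both. This was 75% of the WT PP genes and 94.7% of the A5-KO PP genes, against 91.9% and 82.8% of all protein-coding genes with a peak in these lists. Among the 18, H2BC15 and H2AC16 share 1 peak. H2AC11, H2AC15, H2AC17, H2BC9, H2BC21 and H3C12 were in WT PP alone and H3C2 in A5-KO PP alone. Of the 22 A5-KO PP peaks 14 were shared with WT PP (63.6%), against 46.8% of all. Of the 26 WT PP peaks 12 were shared with A5-KO PP (46.2%), against 50% of all. The largest WT PP peaks without sufficient cover in A5-KO PP were those of H4C14, H2AC15 and H4C15, with 9660, 6392 and 4280 IP reads. The largest A5-KO PP peak without it was at H2BC8, past the stem-loop, with 1303 IP and 649 input reads.

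In the 14 shared pairs the log2 enrichment was at least 1 higher in A5-KO PP in 7 (50%) and at least 1 lower in 3 (21.4%). Over all 25833 shared peaks of these lists 38% were higher and 28.9% lower by that rule. The median difference was 0.69 over the 14 pairs and 0.24 over all. In 9 of the 14 pairs, 1 or both lists had fewer than 10 input reads. The largest difference, 12.01 at H3C7, set a WT PP peak of 34 IP and 5 input reads against an A5-KO PP peak of 497 IP and 0 input reads. A minimum of 10 input reads in each list left 5 pairs, of which 1 was at least 1 higher and 2 at least 1 lower, with a median of -0.61. At that minimum 27.6% of all 15031 shared peaks were higher and 25.1% lower, with a median of 0.05. The sign of the members' median turned with the input minimum.

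Of these 5 pairs, H2BC5 differed by -4.05 in the deposited log2 enrichment (518 IP and 95 input reads for WT PP, 108 and 44 for A5-KO PP). H2AC25 differed by -1.50 and H2AC6 by 1.45. H4C11 and H4C3, the 2 pairs that had 50 or more input reads in both lists, differed by -0.61 and by -0.12. H4C3 had 550 IP and 124 input reads in WT PP and 412 and 130 in A5-KO PP. The deposited enrichment did not follow the pooled counts: 39 IP and 0 input reads went with 1.01 at H2BC18 in WT PP, and 31 and 0 with 9.53 at H2BC4 in A5-KO PP. From the pooled counts with 1 read added, scaled to the reads in all peaks, the change was -1.10 for H2BC5, -1.44 for H2AC25, -0.49 for H2AC6, -0.99 for H4C11 and -0.43 for H4C3, so that H2AC6 changed sign. No replicate error could be given for these differences.

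**Figure D4:**
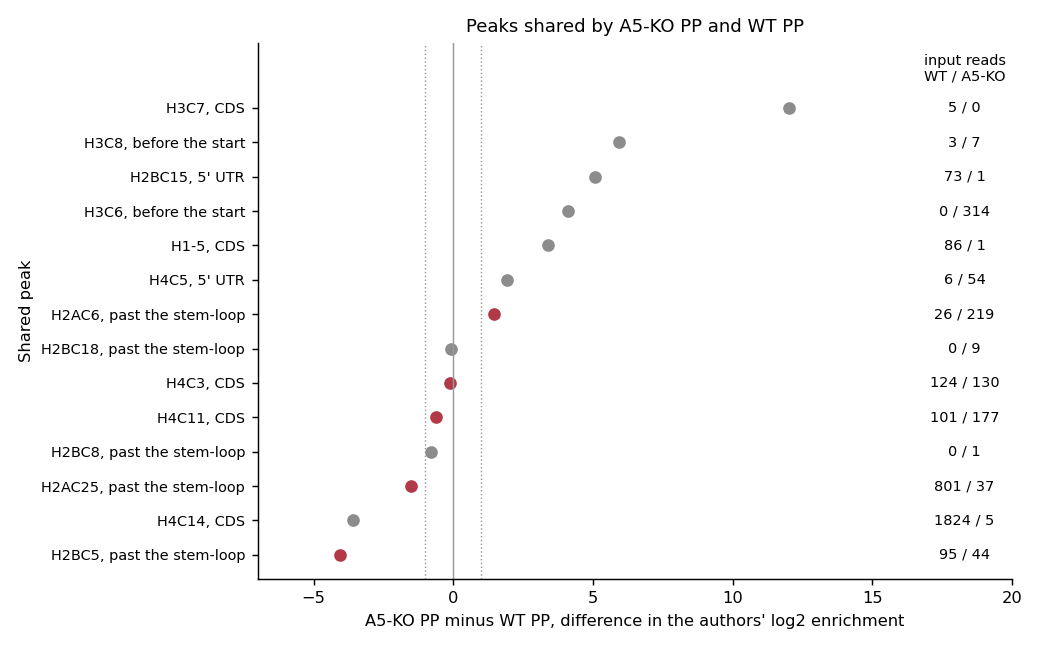
Difference in the authors' log2 enrichment, A5-KO PP minus WT PP (x axis), for the 14 shared histone peaks, 1 point per pair without a replicate error, with the input reads of both lists at the right. The 5 pairs in red have at least 10 input reads in both lists and lie between -4.05 and 1.45, and the grey pairs have fewer.

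By gene, the input reads in member peaks differed between WT PP and A5-KO PP in both directions. H4C14 had 1826 and 20 input reads, H4C15 889 and 6, and H2AC25 801 and 37, while H2BC8 had 0 and 650, H3C6 38 and 314 and H2AC6 26 and 219. Inside the main transcript, member peaks held 23197 IP and 4713 input reads over 1482 nt in WT PP, and 2160 IP and 370 input reads over 669 nt in A5-KO PP. Past the stem-loop they held 9466 IP and 1154 input reads over 1784 nt in WT PP, and 3074 IP and 980 input reads over 1821 nt in A5-KO PP. Relative to all peaks of the same list, input reads per 100 nt past the stem-loop were 0.463 times for WT PP and 0.763 times for A5-KO PP, and inside the main transcript 2.28 and 0.784 times. These sums cover regions called separately in each list, and the WT PP reads inside the main transcript include the 9660 and 4280 IP reads of the copies H4C14 and H4C15.

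Of 12 histone genes listed as replication-independent, 11 had a peak in any list, against 81.8% of protein-coding genes, and H3-5 had none. Most such genes have introns and poly(A) tails, but H2AX carries the stem-loop letters, as given above. By list the share of the 12 genes ran from 58.3% in A5-KO PP, below the 69.7% of protein-coding genes there, to 83.3% in hILO, above the 57.7% there. H2AX, the variant phosphorylated at DNA breaks, had 33290 IP reads in hPSC, 6566 in hILO and 285 to 933 elsewhere. CENPA, the centromeric H3 variant, had 958 to 5167 in the 6 lists. H1-10 had 9949 in hPSC, 845 in DE, 488 in hILO and 1416 in WT PP, and no peak in PP or A5-KO PP.

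Of 30 genes for making and degrading histone mRNA, all had a peak in some list and 16 in all 6, against 81.8% and 37.7% of protein-coding genes. SLBP itself had peaks in all 6, with IP and input reads of 2571 and 364 in hPSC, 1379 and 749 in DE, 16533 and 2207 in PP, 332 and 130 in hILO, 950 and 159 in WT PP and 13962 and 1874 in A5-KO PP. PP and A5-KO PP were high for SLBP and the other 4 lists low. TUT4, a uridylyltransferase that marks RNA for decay, had 4812 to 13385 IP reads in the 6 lists. UPF1, a helicase of RNA decay, had 859 in A5-KO PP and 5832 to 16042 in the others. SYMPK, the scaffold of the 3′ end cleavage complex, had 17477 in WT PP, none in A5-KO PP and 1845 to 7763 in the mRNA lists.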

How the data were processed

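m6A-seq was done on 24 libraries, 2 IP and 2 input for each of 6 populations. The authors used fastp for trimming, HISAT2 for alignment to GRCh38, where a read kept 1 alignment only, and exomePeak2 for peaks, with 1 list per population. Deposited per peak were pooled read counts of IP and input (sum or mean not stated), a log2 enrichment and a p-value, raw and adjusted. The annotation they used is not given in the sources used here.

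Spans were reduced to exons of GENCODE 44. Peaks of another list on the same strand had to cover over 50% of a peak's exonic length for it to be shared. Shares carry Wilson 95% intervals. Copies were exact 100-nt matches elsewhere in the genome. Named were the 2 members with most IP reads per family, members in all 4 mRNA lists, and shared pairs with at least 50 input reads; others were chosen after their values were seen. Members and lists were chosen with earlier results of these data known. The overlap code was tested on simulated data. The planned per-library count model was not fitted, since the lists hold pooled counts. Python 3.11.15, pandas 2.3.3 and scipy 1.17.1 were used. Values of 1 histone gene outside the group are not reported here.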

Additional observations from a re-analysis of the deposited data

How the results depend on the processing

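No paired analysis was possible because reads were pooled over libraries before deposit. The count model, the replicate block, other size factors and leaving out a replicate were therefore not run. Of 122 alternatives, 47 left the value within its limits, 71 moved it and 4 reversed it, and except where fewer peaks are kept by construction, the cause was not tested.

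Genes with a peak numbered 14 in A5-KO PP and hILO, 13 in WT PP, 11 in hPSC and 8 in PP and DE at p below 1e-05. At p below 1e-10 they were 12 in hILO, 10 in hPSC, 9 in WT PP, 7 in A5-KO PP, 5 in DE and 3 in PP, so that at neither limit was WT PP the highest, as it was with all peaks. With IP/input of at least 3 they were 10 in PP, 9 in hILO and 6 in DE, and with at least 10 input reads 10 in A5-KO PP. Inside the main transcript, chosen after seeing the data, they were 15 in WT PP, 11 in hILO, 9 each in PP and A5-KO PP, and 5 in DE.

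Shares follow in the order hPSC, DE, PP, hILO, WT PP and A5-KO PP. With reads on protein-coding genes as the whole, input shares were 0.0346%, 0.0359%, 0.0288%, 0.0349%, 0.0334% and 0.0160%, and IP shares 0.0413%, 0.0320%, 0.0256%, 0.0326%, 0.0596% and 0.0222%. Without H2AC25 input shares were 0.0285%, 0.0287%, 0.0259% and 0.0266% in hPSC, DE, hILO and WT PP, and IP shares 0.0330%, 0.0238%, 0.0211%, 0.0248% and 0.0428% in the lists from hPSC to WT PP. The next alternatives were chosen after seeing the data. Without peaks over 50% not unique, input shares were 0.0268%, 0.0289%, 0.0230%, 0.0269%, 0.0160% and 0.0121%, and IP shares 0.0295%, 0.0248%, 0.0205%, 0.0252%, 0.0304% and 0.0155%. Inside the main transcript, input shares were 0.0271%, 0.0260%, 0.00922%, 0.0168%, 0.0248% and 0.00291%, and IP shares 0.0316%, 0.0211%, 0.00856%, 0.0161%, 0.0387% and 0.00560%.

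Between A5-KO PP and WT PP, 5 pairs were left with at least 10 input reads and 2 with at least 50. Of these, 1 and 0 were at least 1 higher in A5-KO PP, and with at least 50 input reads 0 were lower. From count ratios with 1 read added, 3 pairs were higher and 5 lower, and with 0.5 added 3 and 6. The median difference, 0.69 as reported, turned to -0.61 and -0.37 with the input minimums and to -0.92 and -0.94 with count ratios, while reciprocal overlap over 50% gave 1.45. By gene, 18 genes with 9 higher in A5-KO PP became 2 genes with 0 higher at 50 input reads.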

Other observations

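Histone genes and pseudogenes that the symbol and chromosome rule left out also had peaks. H4C16, an H4 gene on chromosome 12 that carries the stem-loop letters, had 209 IP and 22 input reads in hPSC, 1058 and 262 in hILO and 175 and 20 in WT PP. The transcribed pseudogene H2BC20P on chromosome 1 had 1855 IP and 115 input reads in hPSC, 104 and 37 in DE, 89 and 21 in PP, 115 and 45 in WT PP and 704 and 308 in A5-KO PP. H2BC19P had 115 and 23 reads in PP and 728 and 437 in hILO, and H2AC3P on chromosome 6 had 306 and 47 in A5-KO PP alone.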
